A study of Mus musculus with 8 samples.

Results

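Fibroblasts that lack the transcription factor Stat3 were examined after 30 minutes of oncostatin M (OSM), an inflammatory cytokine related to interleukin-6. The comparison took the 4 Stat3-/- arrays of the 8 arrays in the series. It set 2 arrays of Stat3 KO cells given OSM at 20 ng/ml against 2 arrays of the same line without OSM, paired by the number in their titles (2 and 3), and ran across all probe sets that passed a filter on low values; only those that name 1 gene are named. Both Stat3 KO groups are a mouse embryonic fibroblast line without functional copies of Stat3 that had immortalised spontaneously. They grew in medium with 10% serum, which itself holds growth factors. The 2 Stat3 WT groups (STAT3+/+ cells, also spontaneously immortalised, without and with OSM, 2 arrays each) show below where the Stat3 KO response differed. They also enter the filter and the limma fit, and so the standard errors and p-values of the Stat3 KO comparison. Each genotype is a single line, so the effect of losing Stat3 and any other difference between these lines cannot be told apart. Treatment was read from the titles, since OSM appears in the growth text of every sample. The labels are silent on whether a pair of arrays in a group stems from independent cultures. The p-values therefore reflect array-to-array spread that could be purely technical. The fit also has 1 term for the title number, shared by both genotypes. Its standard errors thus take in number differences that are unlike between the genotypes, beside the spread of the Stat3 KO pairs.

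OSM binds a receptor made of gp130 (Il6st) and the OSM receptor subunit (Osmr) or the leukaemia inhibitory factor receptor (Lifr). The receptor-bound JAK kinases phosphorylate Stat3, and they feed the Ras, ERK and PI3 kinase routes. Stat3 targets include the feedback inhibitor Socs3 and the transcription factors Bcl3, Cebpd and Junb, whereas ERK acts on serum response factor and AP-1 genes such as Fos, Egr1 and Fosl1. Genes with interferon-type promoters respond to interferon regulatory factors.

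Expression is given on the log2 scale for each probe set. Of 10833 probe sets with 1 gene symbol, 6155 passed the filter on low values (log2 of at least 5 on at least 2 of the 8 arrays), among 6756 probe sets tested and 5195 genes. Array medians lay between 5.27 and 5.66, and values under 5 were read as near background. Replicate number divided the arrays more than OSM did. With the number as a term, limma called 2775 probe sets between the numbers. The Stat3 KO OSM array of number 2 stands apart. It correlated at 0.897 to 0.9303 with the number-3 arrays, whereas the other 3 number-2 arrays correlated with them at 0.8356 to 0.8913. Differences within number 3 do not contain that array and serve as the values without it. The brighter probe set for Stat3 read 8.08 and 7.81 without OSM (numbers 2 and 3) and 8.70 and 9.17 with it. The other Stat3 probe set read 2.76, 2.86 and 2.94 on 3 of these arrays and 7.30 on the OSM array of number 3, so that array differs from the other Stat3 KO arrays there. In Stat3 WT cells that probe set, called the dimmer one for its Stat3 KO values, read 9.80 and 10.95 without OSM and 11.99 and 12.57 with it. The brighter one read 10.11 and 10.50, and then 11.82 and 11.94, there. The dimmer probe set was thus near background on 3 Stat3 KO arrays and well above it on all 4 Stat3 WT arrays. The labels do not place the deletion relative to either probe set. Of 12 fibroblast markers 9 read at least 5 on all 4 Stat3 KO arrays, while Vim, Thy1 and Lum read under 5. Their mean was 11.13 to 11.34 without OSM and 11.04 to 11.18 with it. The means of 8 epithelial, 9 leukocyte, 8 endothelial, 10 muscle and 9 neural markers stayed under 5 on all 4 arrays, and Cdh1, Epcam, Ptprc, Cdh5 and Sox10 were under 5 throughout. Single members of these lists did read at least 5 on all 4 arrays, namely Csf1r and Cd14 (leukocyte), Pecam1, Flt1 and Eng (endothelial), Myog and Actc1 (muscle) and Tubb3 and Mbp (neural). Mbp read 8.54 and 9.42 without OSM and 5.14 and 9.24 with it. The mean of 7 adipocyte markers was 5.87 to 6.66 without OSM and 6.30 to 6.68 with it. Of these, Pparg, Adipoq, Fabp4 and Lep were under 5, while Lpl, Cebpa and Scd1 read at least 5 on all 4 arrays. No list of markers had a member that met the 2-fold rule described below. Over all probe sets that rule was met by 2.13% in the higher direction and 0.503% in the lower, so short lists can easily hold none.

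Ereg and Hk2 rose with OSM. Ereg encodes epiregulin, a ligand of the epidermal growth factor (EGF) receptor. It read 3.35 and 4.64 in untreated cells (numbers 2 and 3, as in all pairs of values below) and 10.76 and 10.94 with OSM. The groups lay far apart, although the untreated values are near background, so the size of the step is not exact. Its log2 difference was 6.85 ± 0.43 (limma standard error, SE, n = 2 arrays a group, as for every SE below; limma adjusted p = 0.0214). Hk2 encodes hexokinase 2, which phosphorylates glucose in the first step of glycolysis. It read 8.52 and 9.20 without OSM and 11.61 and 12.27 with it, again without overlap, and the steps within the numbers, 3.09 and 3.08, were nearly equal. The log2 difference was 3.08 ± 0.18 (SE; limma adjusted p = 0.0214). Both genes also stood higher in Stat3 WT cells, Ereg by 4.79 and 3.51 within the numbers and Hk2 by 3.46 and 3.32. Leaving out any 1 of the 8 arrays, Stat3 WT arrays included, lifted the limma adjusted p to between 0.0689 and 0.384 for Ereg and to between 0.102 and 0.384 for Hk2. Without the replicate number as a block these p-values were 0.116 and 0.513, and in a fit of the 4 Stat3 KO arrays alone they were 0.0995 and 0.123.

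In this fit no other probe set was called higher and none was called lower. With the block fitted separately in each genotype 19 were called higher and 1 lower, and with the 4 Stat3 KO arrays alone 1, Socs1, was called higher. Among all 6756 probe sets tested, limma called 0.0296% higher and 0% lower at an adjusted p under 0.05. At an unadjusted p under 0.05 it found 447 higher (6.62%) and 299 lower (4.43%). The 2 genes next in order were Has2 and Fosl1, each with a limma adjusted p of 0.0508. Has2 encodes a hyaluronan synthase and read 3.93 and 5.16 without OSM and 8.05 and 10.38 with it. Fosl1, an AP-1 subunit, read 6.53 and 6.72 without OSM and 11.01 and 10.52 with it. Their groups did not overlap, and their log2 differences were 4.67 ± 0.38 and 4.14 ± 0.34 (SE).

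With so few arrays, the response was also described without a test, by the probe sets that differed at least 2-fold the same way within both numbers and read at least 5 on both arrays of the higher group. There were 144 higher (2.13% of those tested) and 34 lower (0.503%). In Stat3 WT cells the same rule gave 132 higher (1.95%) and 62 lower (0.918%). The 144 higher probe sets included 128 with 1 symbol, of 123 genes, and the 34 lower ones included 33, of 33 genes. Number 2 alone would have given 722 higher and 366 lower, and number 3 alone 252 and 82, so the joint rule is limited mainly by number 3. Both OSM arrays lay above both untreated arrays for 103 of the 144, and below them for 21 of the 34. Over all probe sets tested 14.4% lay above and 12.3% below in this way. The rule used the same arrays and favours groups that do not overlap, so these counts describe the set and support nothing. The median log2 difference over all probe sets was 0.02, with 52.2% above 0, so the bulk of transcripts lay close to no difference. Of the higher genes, 109 met the rule on the probe set that represents them, and their median difference was 2.10 within number 2 and 1.63 within number 3. In the fit 86 of these 109 also stood higher in number 3 than in number 2. The median of that number difference was 1.11, beside 0.09 over all probe sets. Stat3 KO steps correlated with the number difference of untreated Stat3 WT cells at 0.3673 within number 2 and 0.1681 within number 3. The part of the number difference in the steps within number 2 was not tested. The smallest difference that met the rule was 1.005 among the higher probe sets and, in size, 1.021 among the lower ones.

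**Figure D1:**
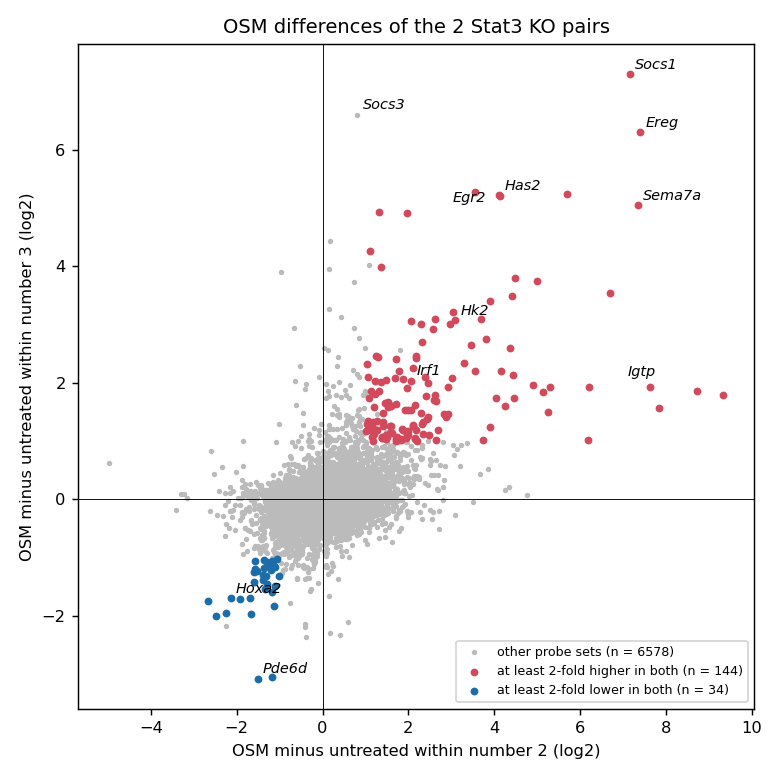
OSM minus untreated log2 value within number 3 (vertical) against that within number 2 (horizontal) in Stat3 KO cells, 1 point per probe set tested. The 144 red points were at least 2-fold higher in both numbers and the 34 blue points at least 2-fold lower, and the labelled Socs3 point, that of its brighter probe set, is grey because its difference within number 2 was 0.81.

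The receptor and its inhibitors come first. Osmr, the OSM receptor subunit itself, read 6.84 and 9.87 without OSM and 10.54 and 12.95 with it. Each OSM array was above both untreated arrays, by 3.70 and 3.09 within the numbers (3.39 ± 0.43, SE; limma adjusted p = 0.159). The shared subunit Il6st did not move with OSM beyond its error, at 11.78 and 12.55 without and 11.90 and 12.63 with it (0.10 ± 0.42, SE; limma adjusted p = 0.949). Lifr read 8.16 and 10.98 without OSM and 10.45 and 11.67 with it, and 2 other Lifr probe sets differed by 0.03 and 0.19, so its probe sets disagree. Of the 19 gp130 pathway components tested, 2 were 2-fold higher in both numbers and none 2-fold lower (2.13% and 0.503% over all probe sets). The other one was Ptpn1, a phosphatase that acts on JAK kinases (steps of 1.28 and 1.19; 1.23 ± 0.35, SE; limma adjusted p = 0.384). Gab1, an adaptor between receptors and the ERK and PI3 kinase routes, differed by -1.04 and -0.94 (limma adjusted p = 0.379). The median of these 19 genes was 0.22.

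Socs1, an inhibitor that binds JAK kinases, was near background without OSM and well above it with OSM. It read 1.14 and 4.10 without OSM and 8.31 and 11.40 with it. Both untreated arrays were under 5 and both OSM arrays well over it, with steps of 7.16 and 7.30. The log2 difference was 7.23 ± 0.85 (SE; limma adjusted p = 0.131). With values under 5 set to 5 it was 4.85, and that of Ereg was 5.85. All 4 Stat3 WT arrays read under 3 for Socs1, with steps of 1.27 and 1.09 at that low level. Socs3, the feedback inhibitor that binds gp130 itself, read 8.31 and 5.38 without OSM and 9.12 and 11.98 with it. Its steps were therefore very unequal, 0.81 within number 2 and 6.61 within number 3 (limma adjusted p = 0.409). The larger step holds both the lower untreated value, 5.38, and the higher OSM value, 11.98. On that OSM array the dimmer Stat3 probe set read 7.30. Whether the Socs3 and Stat3 readings on that array are linked was not tested. The second Socs3 probe set read 6.12 and 6.22 without OSM and 7.22 and 10.48 with it. Its steps were 1.10 and 4.25, so that probe set met the 2-fold rule. In Stat3 WT cells Socs3 differed by 4.70 and 5.08.

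Promoters are shown for 3 of the 10 genes with the smallest limma p on the probe sets that represent them. All 10 also met the 2-fold rule. The 3 are examples of windows that hold the motifs searched. Each is the RefSeq sequence (GRCm38.p6) from 250 bases before to 50 bases after the transcription start, in the direction of the gene. Capitals mark matches. RefSeq promoters were found for 7 of the 10, and Ereg, Has2 and Fosl1 were not matched. Socs1 lies at chr16:10785487-10785786 on the minus strand, and its capitals are 2 overlapping matches to the interferon-response type of motif, GAAA, 2 bases of any kind, then GAAA, from -83 to -74 and from -77 to -68. Gbp2b, an interferon-inducible guanylate-binding protein gene, lies at chr3:142594597-142594896 on the plus strand, with 1 such match on the opposite strand from -137 to -128 and an AP-1 match from 9 to 15. Rhoj, which encodes a small GTPase, lies at chr12:75308063-75308362 on the plus strand, with a CArG box, the core of the serum response element, from 3 to 12.
Socs1: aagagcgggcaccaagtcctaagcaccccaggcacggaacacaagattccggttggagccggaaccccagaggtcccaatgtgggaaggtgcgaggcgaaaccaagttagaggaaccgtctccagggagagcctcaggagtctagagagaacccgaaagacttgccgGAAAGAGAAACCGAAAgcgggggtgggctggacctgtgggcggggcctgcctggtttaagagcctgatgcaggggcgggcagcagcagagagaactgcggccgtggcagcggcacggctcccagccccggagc
Gbp2b: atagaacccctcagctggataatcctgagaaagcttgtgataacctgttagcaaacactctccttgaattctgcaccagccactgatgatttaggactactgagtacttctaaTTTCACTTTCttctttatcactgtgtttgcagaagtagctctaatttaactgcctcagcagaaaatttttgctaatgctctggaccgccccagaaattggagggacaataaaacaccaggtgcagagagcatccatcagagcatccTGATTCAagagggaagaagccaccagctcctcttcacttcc
Rhoj: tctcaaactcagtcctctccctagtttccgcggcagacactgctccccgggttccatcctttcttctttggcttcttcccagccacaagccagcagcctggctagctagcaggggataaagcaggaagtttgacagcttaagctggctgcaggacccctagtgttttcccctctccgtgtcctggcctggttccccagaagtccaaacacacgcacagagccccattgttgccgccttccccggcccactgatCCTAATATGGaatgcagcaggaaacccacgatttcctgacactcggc
Among the other leading genes, the window of Gbp2 held an AP-1 match and an interferon-response match and that of Irf1 held a STAT match. The windows of Hk2 and Sema7a held none of the 6 motifs searched on both strands, namely TGANTCA (AP-1), TGACGTCA (CRE), TTCNNNGAA (STAT), TATAAA, the CArG box and the interferon-response type. That says only that these letters are not in these windows. The interferon-response type of motif was added after the values were seen. It was present in 3.49% of all 27025 RefSeq promoters, in 3.18% of the 4245 of genes tested and in 17.1% (14 of 82) of the 2-fold higher genes with a promoter. The 14 were Socs1, Gbp2, Gbp2b, Gbp7, Irgm1, Irgm2, Igtp, Ifih1, Ifit1, Ifit3, Eif2ak2, Cxcl10, Trim21 and Sgk1. The STAT motif was in 8.47%, 6.78% and 13.4% of these same sets, the AP-1 motif in 7.93%, 5.30% and 8.54%, the CArG box in 1.57%, 1.55% and 3.66%, TATAAA in 14.2%, 7.37% and 12.2%, and the CRE in 1.88%, 3.11% and 2.44%. A match is a description of the letters and no evidence of binding.

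**Figure D2:**
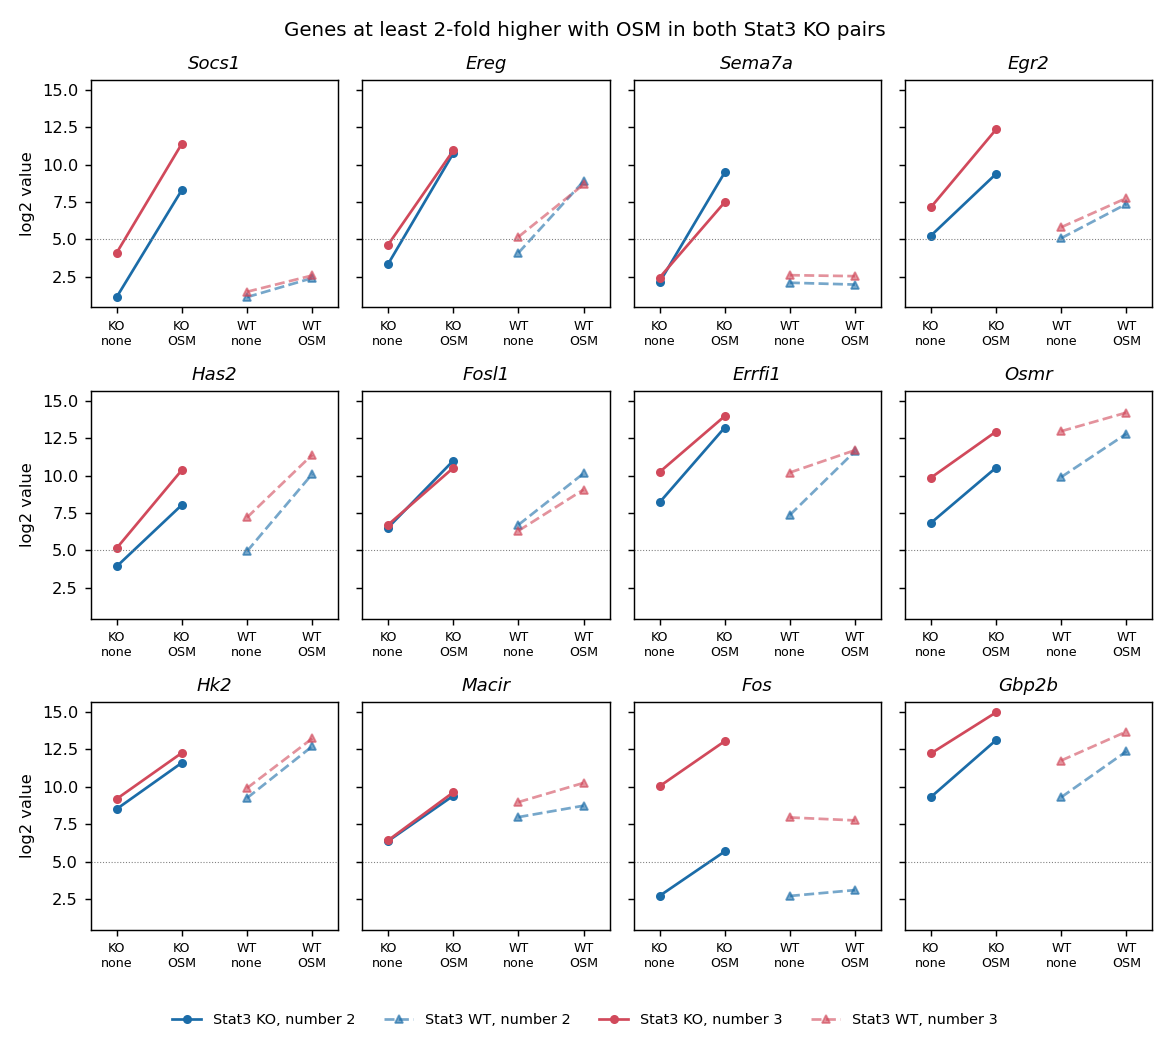
Log2 value on each array (vertical) for 12 genes at least 2-fold higher with OSM in both Stat3 KO numbers, with lines joining the untreated and OSM arrays of 1 number, circles for Stat3 KO and triangles for Stat3 WT. The dotted line is the floor of 5; Socs1 and Sema7a cross it in Stat3 KO cells and stay under 3 on all Stat3 WT arrays.

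Genes of EGF receptor signalling and ERK feedback included Ereg, the 1 member called. Of 13 tested, 6 were 2-fold higher in both numbers (2.13% over all probe sets) and none lower, and 10 were above 0 (52.2% over all). Their median was 2.20 within number 2 and 0.999 within number 3. Beside Ereg stood Hbegf, another EGF receptor ligand, at 6.20 and 7.58 without OSM and 8.49 and 10.58 with it (2.65 ± 0.41, SE; limma adjusted p = 0.254). Errfi1, which inhibits the EGF receptor from within the cell, read 8.21 and 10.24 without OSM and 13.22 and 13.98 with it. Its groups did not overlap, and its second probe set gave similar steps of 4.41 and 3.50. Dusp6, a phosphatase that inactivates ERK, read 8.0 and 11.90 without OSM and 13.31 and 13.83 with it, so its untreated level, more than its OSM level, differed between the numbers. Phlda1 and Ier3 completed the group, with differences of 3.28 ± 0.62 and 1.61 ± 0.49 (SE). Their steps were larger within number 2, 4.43 and 2.13 for Phlda1 and 2.20 and 1.01 for Ier3. All but Hbegf met the rule in Stat3 WT cells as well.

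Of 7 tested AP-1 genes, Fosl1, Fos and Atf3 met the 2-fold rule in the higher direction (2.13% over all probe sets). Fos read 2.70 and 10.04 without OSM and 5.67 and 13.05 with it. The steps of 2.97 and 3.01 were alike while the levels of the numbers lay far apart, so the groups overlap (2.99 ± 0.76, SE; limma adjusted p = 0.379). In Stat3 WT cells Fos differed by 0.39 and -0.20. Atf3, a stress-responsive partner of AP-1 subunits, read 6.12 and 8.18 without OSM and 7.37 and 10.64 with it. Its second probe set had steps of 0.39 and 0.84. Junb read 10.84 and 10.83 without OSM and 11.26 and 12.58 with it (1.09 ± 0.36, SE; limma adjusted p = 0.41), and its second probe set met the rule with steps of 1.22 and 2.03.

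Of the other 28 immediate early genes tested, 12 were 2-fold higher and none lower (2.13% and 0.503% over all probe sets). The median of the 28 was 1.22 within number 2 and 1.04 within number 3. Egr2, a zinc finger factor induced by serum, read 5.25 and 7.15 without OSM and 9.38 and 12.35 with it. Its steps were 4.13 and 5.20 (4.67 ± 0.64, SE; limma adjusted p = 0.172), against 2.29 and 1.95 in Stat3 WT cells. Its relative Egr1 read 10.10 and 12.13 without OSM and 12.72 and 13.91 with it (limma adjusted p = 0.462). Ptgs2, the inducible enzyme of prostaglandin synthesis, read 5.94 and 10.92 without OSM and 11.08 and 12.77 with it. Ier2, the mRNA-destabilising protein Zfp36, Myc and Snai1 had smaller differences of 2.14, 2.06, 1.28 and 1.31. The steps were 2.82 and 1.46 for Ier2, 1.71 and 2.40 for Zfp36 and 1.49 and 1.08 for Myc. Snai1, a repressor of epithelial genes, stepped by 1.28 and 1.34 here and by 2.23 and 2.22 in Stat3 WT cells. Ccn2, a matrix-associated growth factor, was the only probe set 2-fold higher in Stat3 KO cells and 2-fold lower in Stat3 WT cells, but its SE was 3.21 against a difference of 3.38.

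The 29 interferon-stimulated genes tested held 13 that were 2-fold higher in both numbers and none lower (2.13% and 0.503% over all probe sets). None of the 29 was called, while 28 of them were above 0 (52.2% over all). Their median was 1.73 within number 2 and 1.47 within number 3, beside 0.06 and -0.01 over all probe sets. The mean of the 29 genes was 7.55 and 11.71 on the untreated arrays and 9.42 and 13.16 on the OSM arrays. The number-3 untreated array thus lay above the number-2 OSM array, and only 4 of the 29 genes were higher on both OSM arrays than on both untreated ones (14.4% over all probe sets). The median difference between the numbers, 3.17, was larger than that with OSM, and its part in the result was not tested. In Stat3 WT cells the same means were 7.02 and 9.34 without OSM and 7.95 and 10.13 with it.

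Irf1, a transcription factor that activates interferon-stimulated genes, was the steadiest of them. It read 11.41 and 12.78 without OSM and 13.48 and 14.82 with it. Both OSM arrays were above both untreated ones, with steps of 2.07 and 2.04 (2.06 ± 0.21, SE; limma adjusted p = 0.1). The Stat3 WT steps of Irf1 were 0.24 and -0.11. Gbp2 read 10.34 and 12.61 without OSM and 13.25 and 14.53 with it, and Gbp2b read 9.32 and 12.24 and then 13.13 and 14.98. These guanylate-binding proteins take part in defence against intracellular microbes, and both also met the 2-fold rule in Stat3 WT cells, with Gbp2 steps of 2.15 and 1.44 and Gbp2b steps of 3.07 and 1.93.

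The immunity-related GTPases Igtp and Irgm1 read 4.96 and 13.04, and 8.84 and 12.92, without OSM. With OSM they read 12.58 and 14.97, and 12.88 and 14.67. Most of their difference came from number 2, with steps of 7.62 and 1.93 for Igtp and 4.04 and 1.75 for Irgm1. Tap1, which carries peptides to MHC class I molecules, had steps of 4.25 and 1.60, and the RNA sensor Ifih1 had 2.63 and 1.69. Ifit1 and Ifit3, which bind foreign RNA, had steps of 2.17 and 1.20 and of 2.93 and 1.47, yet the untreated levels of Ifit3 were 4.12 and 13.51. Cxcl10, a chemokine named for its induction by interferon gamma, read 6.17 and 11.41 without OSM and 8.48 and 14.11 with it (limma adjusted p = 0.462).

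Of 23 chemokine and NF-kB genes tested, 4 were 2-fold higher (Ccl2, Ccl7, Cxcl10 and Nfkbiz) and none lower, with a median of 0.54. Over all probe sets 2.13% were 2-fold higher and 0.503% lower. Ccl2, which attracts monocytes, read 10.50 and 14.12 without OSM and 14.66 and 16.32 with it. The related Ccl7 read 11.18 and 12.46 without OSM and 13.24 and 15.51 with it, a difference of 2.56 ± 0.61 (SE; limma adjusted p = 0.369). Both chemokines were higher on each OSM array than on either untreated array. Nfkbiz, a nuclear inhibitor-of-kappaB protein, read 2.57 and 8.69 without OSM and 8.76 and 10.61 with it, so that its groups all but touched. A second Nfkbiz probe set had steps of only 0.22 and 0.21.

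Stat3-dependent and related genes were tested as a list of 30 SOCS genes and known STAT3 targets. In Stat3 KO cells 29 of them were above 0, but 7 met the 2-fold rule (Osmr, Irf1, Ccl2, Myc, Cebpd, Fos and Socs1), against 14 in Stat3 WT cells. The lists shared 3 genes, which is 42.9% of the 7 and 21.4% of the 14. The median was 0.66 within number 2 and 1.09 within number 3 in Stat3 KO cells, and 1.26 over both numbers in Stat3 WT cells. Cebpd, a C/EBP family factor, read 9.56 and 10.40 without OSM and 11.25 and 12.48 with it (1.88 ± 0.36, SE; limma adjusted p = 0.325), beside steps of 3.86 and 2.39 in Stat3 WT cells. Bcl3, an atypical inhibitor-of-kappaB protein, read 7.22 and 4.83 without OSM and 6.55 and 7.77 with it, so that its steps of -0.67 and 2.95 had opposite signs. All Stat3 KO steps within number 3 use the OSM array on which the dimmer Stat3 probe set read 7.30. The untreated Bcl3 value of number 3, 4.83, was also below that of number 2. The parts of these arrays in the Bcl3 step, and of that OSM array in the list median, were not tested. The Stat3 WT cells had Bcl3 steps of 4.66 and 2.42. Icam1, an adhesion molecule, stepped by 0.12 and 0.03 in Stat3 KO cells and differed by 2.01 in Stat3 WT cells. For Timp1, an inhibitor of matrix proteases, the Stat3 KO steps were -0.31 and 1.13 and the Stat3 WT difference was 1.71. None of these differences between the lines passed the test, with a limma adjusted p of at least 0.913 for each.

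Receptors, guidance molecules and related surface genes gave 6 of 20 tested members at least 2-fold higher in both numbers (Ptger4, Epha2, Ptgs2, Sema7a, Il1r1 and Nrp1), and none lower. Over all probe sets 2.13% were 2-fold higher and 0.503% lower. Sema7a, a membrane-anchored semaphorin that acts through integrins, read 2.13 and 2.43 without OSM and 9.47 and 7.48 with it. It went from near background to a clear signal on both OSM arrays (6.20 ± 0.66, SE; limma adjusted p = 0.117), while all 4 Stat3 WT arrays read under 3. Ptger4, a receptor for prostaglandin E2, read 4.09 and 4.35 without OSM and 7.65 and 6.55 with it (2.88 ± 0.41, SE; limma adjusted p = 0.185). Epha2, an ephrin receptor, read 9.18 and 9.27 without OSM and 11.14 and 11.18 with it. The steps of Epha2, 1.96 and 1.91, were nearly the same in both numbers, and its Stat3 WT steps were -0.28 and 0.44.

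Of 23 genes of TGF-beta, BMP and Notch signalling tested, none was called. By the 2-fold rule 2 were higher and 1 lower (2.13% and 0.503% over all probe sets). Inhba, the activin A subunit, and Fst, which encodes the activin-binding protein follistatin, were the 2 higher members. Inhba read 8.29 and 8.08 without OSM and 11.30 and 10.16 with it, and Fst read 5.01 and 4.62 and then 6.97 and 9.55. Bmp4, a bone morphogenetic protein, was the 1 member 2-fold lower, at 11.16 and 12.42 without OSM and 9.82 and 10.88 with it (-1.44 ± 0.83, SE; limma adjusted p = 0.548). Its second probe set differed by -0.02 and -0.47 and did not repeat that. Notch1 also depended on the probe set, with 0.75 ± 0.25 on the one with the highest mean and 4.42 ± 0.42 (SE; limma adjusted p = 0.0837) on another. On the latter Notch1 read 3.34 and 2.96 without OSM and 6.90 and 8.23 with it.

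Among 23 hypoxia and glycolysis genes only Hk2 and Slc2a1 met the 2-fold rule, and the list's median was 0.04. Slc2a1, the main glucose transporter of fibroblasts, read 8.22 and 9.06 without OSM and 10.51 and 10.54 with it (1.89 ± 0.40, SE; limma adjusted p = 0.325). Vegfa, an angiogenic factor, had steps of 1.62 and 0.61. No member met the 2-fold rule in either direction among 31 proliferation genes, 28 fibroblast matrix genes, 25 oxidative phosphorylation genes, 17 heat shock and unfolded protein genes, 14 metallothionein and antioxidant genes, 13 p53 and CDK inhibitor genes, 12 cholesterol synthesis genes and 10 contractile genes. Over all probe sets the rule picked 2.13% higher and 0.503% lower, and at such shares lists of these sizes can easily hold no member. The medians of these lists lay between -0.31 (proliferation) and 0.29 (heat shock), and the fibroblast markers had -0.25. The chaperones Hsp90aa1 and Hspd1 differed by 0.53 ± 0.13 and 0.54 ± 0.14 (SE; limma adjusted p = 0.379 and 0.382). A second Hspd1 probe set differed by -0.35. Txnrd1, a selenoprotein reductase, differed by 1.02 ± 0.20 (SE; limma adjusted p = 0.325).

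**Figure D3:**
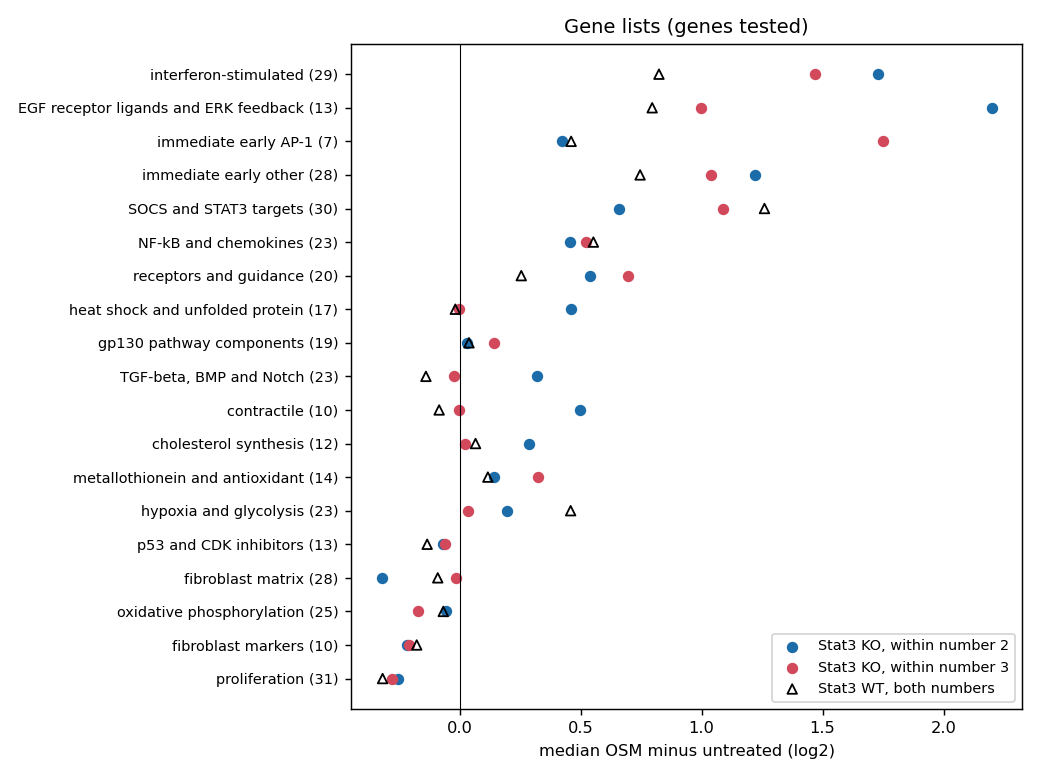
Median log2 difference with OSM (horizontal) over the tested genes of each list with at least 7 of them, number in brackets, within number 2 (blue) and number 3 (red) of Stat3 KO cells and over both numbers of Stat3 WT cells (open triangles). The interferon-stimulated genes had medians of 1.73 and 1.47 in Stat3 KO cells and 0.82 in Stat3 WT cells, whereas the SOCS and STAT3 target genes had 0.66 and 1.09 against 1.26.

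Further genes high in the 2-fold order belong to no list. Rhoj read 5.80 and 7.49 without OSM and 8.42 and 10.59 with it (2.86 ± 0.32, SE; limma adjusted p = 0.12), without overlap, and its Stat3 WT steps were 3.83 and 3.32. Macir read 6.38 and 6.42 without OSM and 9.41 and 9.63 with it, the most even pair of levels among the leading genes, with Stat3 WT steps of 0.76 and 1.28. Klf5, a Kruppel-like factor, read 5.82 and 7.10 without OSM and 10.20 and 9.69 with it, although its SE of 1.34 is wide. Il15ra, the interleukin-15 receptor alpha chain, read 7.68 and 6.79 without OSM and 10.25 and 9.71 with it. Tnfaip8 differed by 2.18 and 2.47 within the numbers (2.32 ± 0.31, SE; limma adjusted p = 0.159).

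Fewer genes stood lower with OSM, and by less. The 28 lower genes that met the rule on the probe set representing them had a median difference of -1.38 within number 2 and -1.40 within number 3, against 2.10 and 1.63 for the higher genes. None passed limma's test. Hoxa2, a homeobox factor of anterior position, read 8.84 and 7.25 without OSM and 6.70 and 5.55 with it. Both OSM arrays were below both untreated ones (-1.92 ± 0.26, SE; limma adjusted p = 0.159), and the Stat3 WT steps of -2.14 and -1.93 were close to the Stat3 KO steps of -2.14 and -1.70. Fzd2, a Wnt receptor, read 11.89 and 12.09 without OSM and 9.97 and 10.37 with it. Its steps were -1.92 and -1.72, and -1.45 and -1.64 in Stat3 WT cells. Apcdd1, a Wnt inhibitor, read 7.39 and 10.99 without OSM and 5.78 and 9.75 with it, so its groups overlap.

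Tcea2, a transcription elongation factor, stood first among the lower genes, at 9.30 and 7.35 without OSM and 6.82 and 5.35 with it (-2.24 ± 0.39, SE; limma adjusted p = 0.325). Its Stat3 WT steps of 0.95 and -0.47 had opposite signs. Zkscan14, a zinc finger gene, read 7.42 and 5.37 without OSM and ended under 5 at 4.76 and 3.63. Dlg3, a membrane scaffold, had steps of -1.70 and -1.69, and the ubiquitin protease gene Usp21 had -1.66 and -1.98. Pde6d, which binds prenylated proteins, had steps of -1.51 and -3.08 with overlap of the groups. Txnip, which binds thioredoxin and limits glucose uptake, read 10.19 and 10.30 without OSM and 8.66 and 9.06 with it, a difference of -1.38 ± 0.26 (SE; limma adjusted p = 0.325) with little spread within either group. Txnip differed by -0.07 and -0.34 in Stat3 WT cells. The remaining named lower genes, Snx21, Tpgs1, Dhrs3, Pard6a and Zfp651, differed by -1.51 to -1.21, with steps between -1.60 and -1.21, and a second Zfp651 probe set by -0.09.

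**Figure D4:**
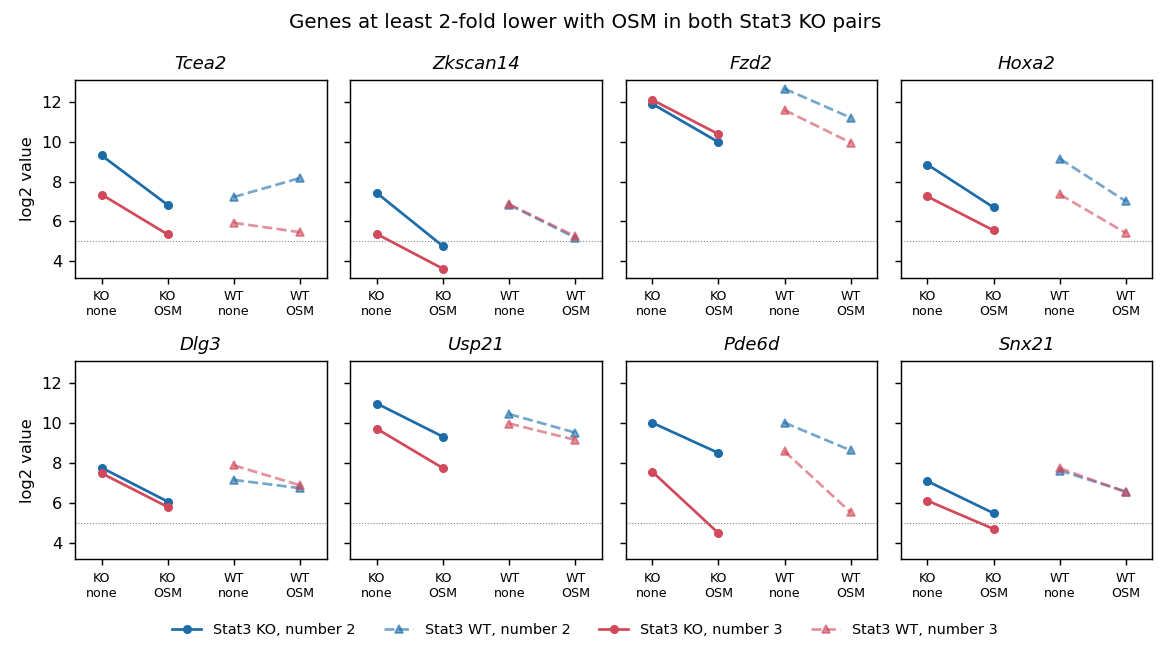
Log2 value on each array (vertical) for 8 genes at least 2-fold lower with OSM in both Stat3 KO numbers, drawn as circles for Stat3 KO and triangles for Stat3 WT with lines joining the arrays of 1 number; the dotted line is the floor of 5. Fzd2 and Hoxa2 go down along similar lines in both genotypes, while Tcea2 goes up in number 2 of Stat3 WT cells.

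Most of the Stat3 KO response lay in the same direction in Stat3 WT cells, whose arrays are separate from those of Stat3 KO. Of the 144 higher probe sets, 114 (79.2%) were above 0 in both Stat3 WT pairs, beside 26.4% of all probe sets tested, and 58 met the 2-fold rule there too, which is 40.28% of the Stat3 KO set and 43.94% of the Stat3 WT set. Of the 34 lower ones, 29 (85.3%) were below 0 in both Stat3 WT pairs, beside 40.2% of all, and 10 met the rule, 29.41% and 16.13% of the sets. The test of the difference between the 2 responses called no probe set over the whole table (0%). In that limma test 248 had an unadjusted p under 0.05, of which 134 were higher in Stat3 KO, and the smallest adjusted p was 0.913. The median SE of a difference between responses was 0.40, beside 0.28 for a difference with OSM.

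The 10 genes with the smallest p for that difference, among those under the 2-fold rule, were Irf1, Sema7a, Ptger4, Socs1, Ggct, Ereg, Tcea2, Ifrd1, Fbxl5 and Macir. Irf1 differed between the lines by 1.99 ± 0.29, Sema7a by 6.29 ± 0.94, Ptger4 by 3.08 ± 0.58, Socs1 by 6.05 ± 1.20 and Ereg by 2.70 ± 0.61 (SE; limma adjusted p of at least 0.913 for each). All 5 had the larger difference in Stat3 KO cells. Tcea2 differed by -2.48 ± 0.56 (SE), with lower OSM values in both Stat3 KO pairs. Ggct, Ifrd1, Fbxl5 and Macir differed by 1.70, 1.39, 1.62 and 2.10, and the Stat3 KO steps were 1.78 and 2.21 for Ggct and 1.87 and 1.19 for Ifrd1. Other genes lay on the line of equal response, such as Has2 (-0.01 ± 0.54), Hk2 (-0.31 ± 0.26) and Hoxa2 (0.11 ± 0.37, SE each), although an SE of that size still allows unequal responses. Among the 109 higher genes, 21 had an unadjusted limma p under 0.05 for a larger response in Stat3 KO and 1, Snai1, for a smaller one (-0.91 ± 0.30, SE). The set was chosen for its Stat3 KO values, so these counts describe it and support nothing. Of the 144 higher probe sets, 25 stayed within 1.5-fold of 0 in both Stat3 WT pairs, Fos, Irf1, Ptger4, Sema7a and Epha2 among them, and so did 9 of the 34 lower ones. The share over all probe sets was not counted, so these counts are descriptions only. Ptger4 and Sema7a were among 4 such higher genes that read under 5 on all Stat3 WT arrays. Near background a small step says little about a lack of response.

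**Figure D5:**
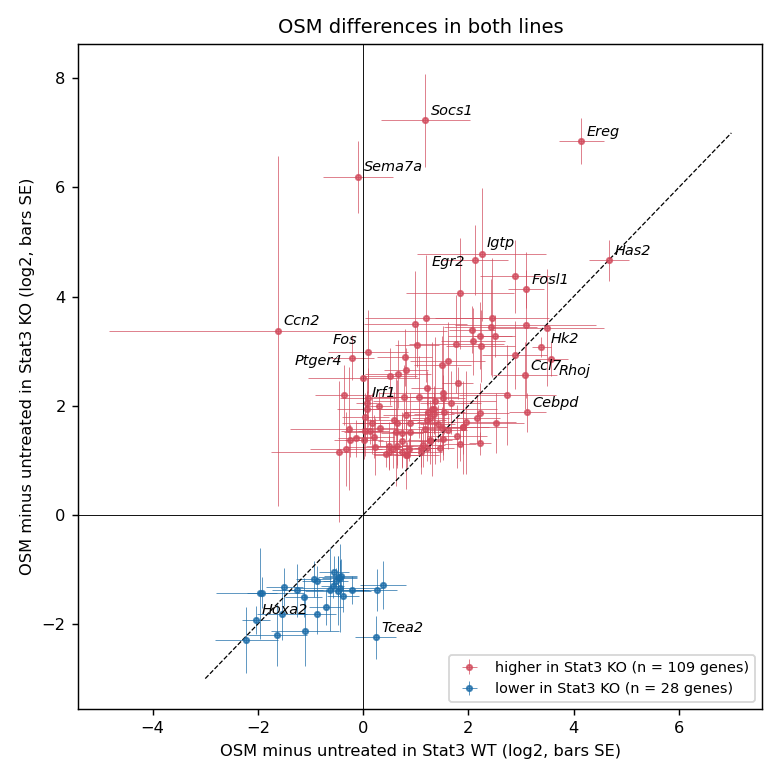
Log2 difference with OSM in Stat3 KO cells (vertical) against that in Stat3 WT cells (horizontal) for the 109 higher (red) and 28 lower (blue) genes, with limma standard errors as bars and equal responses on the dashed line. Socs1, Sema7a and Ereg lie above the line at 7.23, 6.20 and 6.85, while Has2 and Hk2 lie close to it.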

How the data were processed

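Biotin-labelled cRNA from total RNA went onto Affymetrix arrays, per the labels' protocols. The authors deposited 1 log2 value for each probe set on each array; the submitters' processing notes name GCRMA and affy. Tool versions and joint or separate normalization of the arrays are unstated there. GCRMA compresses dim probe sets, which can enlarge a difference from a dim group.

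Of 12422 probe sets (66 controls were left out), 10833 carry 1 symbol, 396 several and 1193 none in the platform annotation; 10817 matched the RefSeq gene table of GRCm38.p6. Differences were tested two-sided with limma 3.58.1 in R 4.3.3 (lmFit, eBayes with trend) on the 8 arrays together; the model held 4 group means and the replicate number as a block, leaving 3 residual degrees of freedom. Probe sets needed log2 of at least 5 on 2 or more arrays. The p-values of 6756 probe sets were adjusted by Benjamini-Hochberg, with calls at an adjusted p under 0.05. Each gene is represented by its tested probe set with the highest mean. The script was checked on simulated data.

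The number was used as a block because the comparison pairs by it. Differences between number 3 and number 2 correlated at 0.7935 between the Stat3 KO groups and 0.9106 between the Stat3 WT groups, and at 0.589 to 0.6638 across genotypes. The main fit shared 1 block between the genotypes, and the median SE of a Stat3 KO difference was 0.283. With a block fitted within each genotype it was 0.216. What the number stands for is unstated.

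The comparison, the gene lists and the named genes were chosen with earlier results of these data known. Of 583 list memberships 500 were on the array, 3 through a synonym. Named by rule were Stat3, called genes, the first 15 higher and 15 lower by the smaller of the within-number differences, a set of gp130 response genes, up to 4 members per list and the 10 genes with the smallest p between the responses. Others were named after their values were seen.

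Other settings were no replicate block, the block within each genotype, Stat3 KO arrays only, no filter or log2 7, eBayes without trend or robust, quantile normalization, median centring, values under 5 set to 5, an added 2-fold threshold, other fold rules, other probe sets and leaving out each array.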

Additional observations from a re-analysis of the deposited data

Results flagged for a closer look

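Sema7a and Fbxl5 were higher with OSM in both Stat3 KO pairs and lower in both Stat3 WT pairs. Sema7a, a semaphorin, stepped by 7.35 and 5.05 in Stat3 KO cells and by -0.12 and -0.07 in Stat3 WT cells, where it was under 5 throughout. The difference between the responses was 6.29 ± 0.94 (SE; limma adjusted p = 0.913). Fbxl5, an F-box protein that takes part in iron sensing, stepped by 1.41 and 1.32 in Stat3 KO cells and by -0.50 and -0.02 in Stat3 WT cells. Its difference between the responses was 1.62 ± 0.42 (SE; limma adjusted p = 0.913). Neither difference passed over all probe sets. Ifit3, Akap12, Cmtr2, Nr4a1 and Ccn2 met the 2-fold rule in Stat3 KO cells and were also lower in both Stat3 WT pairs. The pattern of signs is therefore not particular to Sema7a and Fbxl5. The mean Stat3 WT differences, -0.09 for Sema7a and -0.26 for Fbxl5, lay within their standard errors (0.66 and 0.30). The sign of these means therefore carries no information, although the Fbxl5 step of -0.50 was itself larger than that error.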

How the results depend on the processing

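Higher calls numbered 0 without the replicate block (138 probe sets at an unadjusted limma p under 0.05; pairing by number was the main design), where Ereg and Hk2 had adjusted p-values of 0.116 and 0.513. With the block fitted within each genotype 19 were called higher and 1 lower (Fzd2), and 1 difference between responses was called (Socs1, 6.05). The higher calls were 1 with only the Stat3 KO arrays (Socs1) and 4 with a filter at log2 7, without trend, after quantile normalization and after median centring, where Has2 and Fosl1 joined Ereg and Hk2. With no filter, robust eBayes, values under 5 set to 5 and an added 2-fold threshold, Ereg and Hk2 were called. Leaving out 1 array gave 0 to 1 (Sema7a, without Stat3 KO OSM replicate 3), with 1 degree of freedom fewer. The 2-fold rule gave 332 higher and 171 lower at 1.5-fold, 59 and 7 at 3-fold, and 252 to 722 and 82 to 366 with 1 number alone; 21 lower were left where groups must not overlap. Leaving out 1 array, Il6st ranged from -0.34 to 0.54 and turned without Stat3 KO untreated replicate 2 and without OSM replicate 3 (-0.31), and Bcl3 ranged from -0.58 to 2.85 and turned without Stat3 KO untreated replicate 3. Leaving out a Stat3 KO array breaks its pair, and the number difference is then taken from the other groups. The Il6st steps within the intact pairs were 0.12 and 0.08. The direction also turned for Hspd1 on its other probe set (-0.35). The causes were not tested. The number of arrays limits the precision of every value.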
